A study of Homo sapiens with 6 samples.

Results

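The 10 genes of fatty acid uptake, binding and activation were followed in cardiomyocytes grown in 2 media, and none of those tested differed between the media at an adjusted p under 0.05. They were CD36, SLC27A1, SLC27A6, FABP3, FABP4, FABP5, LPL, ANGPTL4, ACSL1 and ACSL3. All were chosen by symbol for their place in the pathway, out of 38557 listed genes. Earlier results of these data were known when these genes and the related lists below were chosen. Shares of them set beside all tested genes are therefore descriptive only. All 10 symbols were found in the deposited files, and 9 had enough counts to be tested, the exception being FABP4.

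The cells were heart muscle cells (cardiomyocytes) made from the wild-type WTC11 line, a widely used human induced pluripotent stem cell line. Of the 6 cultures, 3 biological replicates were kept in RPMI plus B27 (the RPMI medium). The remaining 3 were kept in DMEM plus fatty acids (the fatty acid medium). B27 is a supplement used in place of serum. Which fatty acids were added, their amount and the time in each medium are not given in the sources used here, nor is it said whether the replicates were separate differentiations. All 6 libraries came from 1 cell line, so the p values measure the spread between these cultures only, which may be technical.

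Heart muscle draws much of its energy from long-chain fatty acids. Lipoprotein lipase on the capillary wall frees them from triglyceride, membrane proteins such as CD36 help them across the cell surface, binding proteins carry them through the cytosol, and acyl-CoA synthetases attach coenzyme A before oxidation or storage. Fatty acids are also ligands of the PPAR transcription factors, and several of these genes are known PPAR targets.

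Gene counts per library ran from 23232324 to 31035389, and values are CPM, counts put on the same total for every library, with TMM factors that limit the weight of a few abundant genes. The 12 cardiomyocyte markers, among them TNNT2, MYH6 and MYH7, summed to 30081 to 35674 CPM in the RPMI medium and 23184 to 33221 CPM in the fatty acid medium. Over all 16107 genes tested, 1.36% passed an adjusted p under 0.05 (edgeR quasi-likelihood test, Benjamini-Hochberg). Of the 12 markers 0 passed, with 4 fitted as higher in the fatty acid medium and 8 as lower. MYH6 was higher there without overlap, and MYH7, ACTN2 and TNNI1 were lower without overlap, against 12.8% of all tested genes in each direction. In a fit blocked on the replicate number 2 passed, both lower (MYH7 and ACTN2), against 3.42% of all tested genes. Libraries with the same replicate number deviated together in the 2 media, so ratios within replicate numbers are given beside the fits. Markers of fibroblasts and stroma (13 genes) summed to 5128 to 9249 CPM in the RPMI medium and 1320 to 2717 CPM in the fatty acid medium, and their part in the values that follow was not tested. In bulk libraries, fewer cells of a type and less RNA per cell cannot be told apart.

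Scaled by exon length, FABP3 was far above the other genes in both media. Heart-type fatty acid binding protein, its product, is the main cytosolic carrier of the cardiomyocyte. FABP3 stood at 352.7 ± 117.4 CPM per kb of exon in the RPMI medium and 399.6 ± 120.7 in the fatty acid medium (SD, n = 3 each). ACSL3 followed with 16.8 ± 1.15 and 23.1 ± 8.10 CPM per kb, and ACSL1 with 8.32 ± 0.524 and 12.1 ± 3.65. In the RPMI medium the ranges of FABP3, ACSL3 and ACSL1 did not overlap. SLC27A6, FABP5, ANGPTL4 and SLC27A1 came next, at means of 2.79 to 6.58 CPM per kb there, and neighbours from ACSL1 down to SLC27A1 overlapped. LPL (0.726 ± 0.159) and CD36 (0.398 ± 0.254) lay below all of these in that medium and overlapped each other. In the fatty acid medium LPL reached 2.24 ± 1.45, overlapping FABP5 and SLC27A1, and CD36 stayed lowest at 0.209 ± 0.110. These lengths are the union of GENCODE 29 exons, which may differ from the annotation used for counting. For CD36 this union spans 10.88 kb because of its many alternative exons, which lowers its scaled level. For FABP3 it spans only 1.026 kb and stops at position 31365625, while the RefSeq gene reaches 31359588. The scaled level of FABP3 may therefore be too high. Without length scaling FABP3 averaged 361.8 and 409.9 CPM in the RPMI and fatty acid media, and ACSL3 121.9 and 167.5 CPM. Exons of ACSL3, ANGPTL4, FABP5, SLC27A1 and SLC27A6 overlapped a gene on the other strand by 1 to 102 bases, at most 4.5% of their length.

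**Figure D1:**
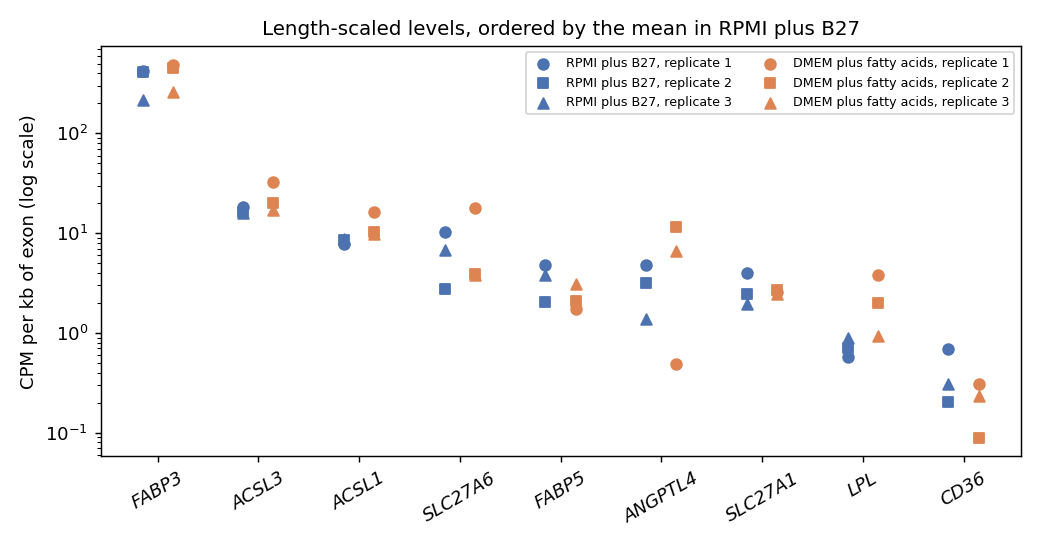
TMM-scaled CPM per kb of annotated exon (log axis) for the 9 tested genes, ordered by their mean in the RPMI medium. Blue marks are the RPMI medium and orange marks the fatty acid medium, with the shape giving the replicate number. FABP3 lies between 217.3 and 489.2 CPM per kb in the 6 libraries, while CD36 does not exceed 0.686.

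Upstream sequences are shown for 3 genes with 1 RefSeq start site each: FABP3, the most abundant member, ACSL3, the more abundant synthetase, and ANGPTL4, the member with the widest spread. They come from the RefSeq promoter table (GRCh38.p14), which held 7 of the 10 genes. Each is the longest stretch of the 250 bases before the start that lies outside every GENCODE 29 exon, written 5′ to 3′ on the strand of the gene. Capitals mark matches, on either strand, to the GC box GGGCGG or to TATAAA.

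FABP3 (chr1:31373077-31373326, minus strand): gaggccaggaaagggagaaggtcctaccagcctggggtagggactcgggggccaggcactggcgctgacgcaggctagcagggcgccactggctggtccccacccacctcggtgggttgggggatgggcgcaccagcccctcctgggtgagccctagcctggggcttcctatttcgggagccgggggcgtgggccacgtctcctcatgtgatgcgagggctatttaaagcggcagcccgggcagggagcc

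ACSL3 (chr2:222860786-222860933, plus strand): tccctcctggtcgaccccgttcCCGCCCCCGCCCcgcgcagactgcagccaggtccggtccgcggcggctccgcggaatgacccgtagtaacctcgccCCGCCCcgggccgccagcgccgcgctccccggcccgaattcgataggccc

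ANGPTL4 (chr19:8363905-8364150, plus strand): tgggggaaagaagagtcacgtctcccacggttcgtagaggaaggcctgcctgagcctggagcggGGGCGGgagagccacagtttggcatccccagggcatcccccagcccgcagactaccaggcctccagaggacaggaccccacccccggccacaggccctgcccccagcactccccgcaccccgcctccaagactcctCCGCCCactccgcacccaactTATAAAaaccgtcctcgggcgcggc

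The ACSL3 stretch of 148 bases held 3 GGGCGG matches, 2 of them adjacent, and 77.0% of its bases were G or C. A match was found in 25.1% of all 27305 RefSeq promoters over the same bases. The ANGPTL4 stretch held 2 GGGCGG matches, against 41.8% of promoters with at least 1, and 1 TATAAA match near the start, against 11.1%. The FABP3 stretch held no exact match to either. The PPAR half-site AGGTCA, its direct repeat (2 copies parted by any base), the sterol element TCACNCCAC and CCAAT were also searched. None of these 4 was found in the 3 stretches, where AGGTCA occurred in 7.07% to 12.1% of promoters over the same bases and the repeat in 0.00366% to 0.0183%. TCACNCCAC was found in 0.502% to 0.875% and CCAAT in 19.2% to 33.0%. The FABP3 and ANGPTL4 stretches lie upstream of the RefSeq start but inside the longer GENCODE 29 gene models, in introns of them, while the ACSL3 stretch ends at the base before its model. Sequence outside these windows was not searched.

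CD36 (chr7:80602207-80679274, plus strand, GRCh38.p14), the scavenger receptor that takes up long-chain fatty acids, was expressed at a low level and had lower values in the fatty acid medium in each replicate pair. RPMI replicates 1, 2 and 3 had 7.46, 2.21 and 3.32 CPM, and fatty acid replicates 1, 2 and 3 had 3.32, 0.970 and 2.55 CPM. The groups overlapped, because replicates 1 and 3 of the fatty acid medium stood above replicate 2 of the RPMI medium. The log2 fold change (fatty acid medium relative to RPMI medium) was -0.93 ± 0.58 (SE), with an adjusted p of 0.443. Within replicate numbers 1, 2 and 3 the log2 ratio was -1.17, -1.19 and -0.38. In a fit that blocks on the replicate number the log2 fold change was -0.90 ± 0.28 and the adjusted p 0.126. The counts behind these values ran from 29 to 198 reads per library. Without RPMI replicate 1 the log2 fold change was -0.29.

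SLC27A1 and SLC27A6 encode fatty acid transport proteins 1 and 6, of which the second is known as the heart-enriched form. SLC27A1 (chr19:17468767-17506168, plus strand) had 32.6, 20.4 and 16.2 CPM in the RPMI medium and 21.3, 22.2 and 20.5 CPM in the fatty acid medium. The fatty acid libraries lay close together and inside the range of the other medium. Its log2 fold change was -0.11 ± 0.25 (95% interval -0.70 to 0.48, adjusted p 0.858), 0.22 without RPMI replicate 1 and 0.0 with total-count scaling.

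SLC27A6 differed more between replicates of a medium than between the means of the media. SLC27A6 lies at chr5:128965488-129033635 (plus strand). It had 35.7, 9.57 and 23.6 CPM in the RPMI medium and 63.0, 13.6 and 13.4 CPM in the fatty acid medium. Replicate 1 was the highest library in both media. The log2 fold change of 0.38 ± 0.70 (95% interval -1.25 to 2.01, adjusted p 0.814) combined within-number ratios of 0.82, 0.51 and -0.82. Without fatty acid replicate 1 it was -0.77.

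As a share of the summed counts of the 2 transporter genes, SLC27A6 made up 47.9% ± 14.2 in the RPMI medium and 50.8% ± 20.8 in the fatty acid medium (SD, n = 3 each). An exact two-sided permutation test gave p = 0.8, where 3 against 3 libraries cannot go below 0.1. Single libraries ran from 32.0% (95% Wilson interval 28.6% to 35.5%) to 74.7% (72.8% to 76.6%), so the spread between replicates was much wider than counting error. Without molecular identifiers, these intervals cover counting error only. The direction turned without RPMI replicate 2 (-5.08 percentage points) and without fatty acid replicate 1 (-9.10). These shares are of raw counts, and the exons span 3.493 kb for SLC27A6 and 8.249 kb for SLC27A1. Scaled by exon length, the share of SLC27A6 ran from 52.6% to 77.5% in the RPMI medium and from 59.2% to 87.5% in the fatty acid medium.

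Of 13 other genes of uptake at the membrane, 11 were tested, and 1 passed, downward, against 1.07% of all tested genes that passed in that direction. It was CAV1, which encodes caveolin 1, the coat protein of caveolae to which CD36 has been linked. The list was chosen with earlier results of these data known, so the comparison with all genes is descriptive only. CAV1 had 58.8, 32.0 and 22.0 CPM in the RPMI medium and 9.56, 10.3 and 9.28 CPM in the fatty acid medium. The groups did not overlap, and the fall was -1.95 ± 0.34 on the log2 scale with an adjusted p of 0.0486. CAVIN1, its caveolar partner, went from 612.3 ± 67.2 to 296.9 ± 77.9 CPM (-1.04 ± 0.22, adjusted p 0.0718, and 0.0401 with the block). GOT2, the mitochondrial aspartate aminotransferase also described as a membrane fatty acid binding protein, had 0.35 ± 0.12 (adjusted p 0.194). SCARB1, a lipoprotein receptor related to CD36, had -0.58 ± 0.21 (adjusted p 0.220). The median log2 fold change of the 11 was -0.39, against 0.01 over all tested genes. Fibroblasts, smooth muscle and endothelium are also rich in caveolin 1, and the stromal marker sum given above moved the same way as CAV1. The collagen genes COL1A1, COL1A2 and COL3A1 made up most of that sum in every library. Of its 13 genes, 1 had a log2 fold change above 0 (DDR2, 0.31 ± 0.48), against 51.0% of all tested genes. In the edgeR test 6 of the 13 passed, all downward, and 8 did with the block, against 1.07% and 3.42% of all tested genes. The smallest p value was that of COL1A1 (-2.72 ± 0.38, adjusted p 0.0338). VIM changed little (-0.12 ± 0.18, adjusted p 0.763). The 7 smooth muscle markers summed to 1995 to 2375 CPM in the RPMI medium and 623 to 1404 CPM in the fatty acid medium, with LMOD1 called lower, and the 8 epicardial markers to 1356 to 1644 and 627 to 705 CPM, with KRT8 called lower. KRT8 made up most of the epicardial sum, with 1065 to 1480 CPM in the RPMI medium and 538.4 to 661.7 CPM in the fatty acid medium. Of the 5 epicardial markers tested, UPK1B alone had a log2 fold change above 0 (0.34 ± 0.46). The part of these cell types in the value of CAV1 was not tested. Of the 6 fits without 1 library, only that without RPMI replicate 3 called CAV1, and the call also ended with total-count scaling (0.0524) and with at least 10 counts in every library (0.0572). Its adjusted p ran from 3.48e-06 to 0.156 over 12 alternatives.

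**Figure D2:**
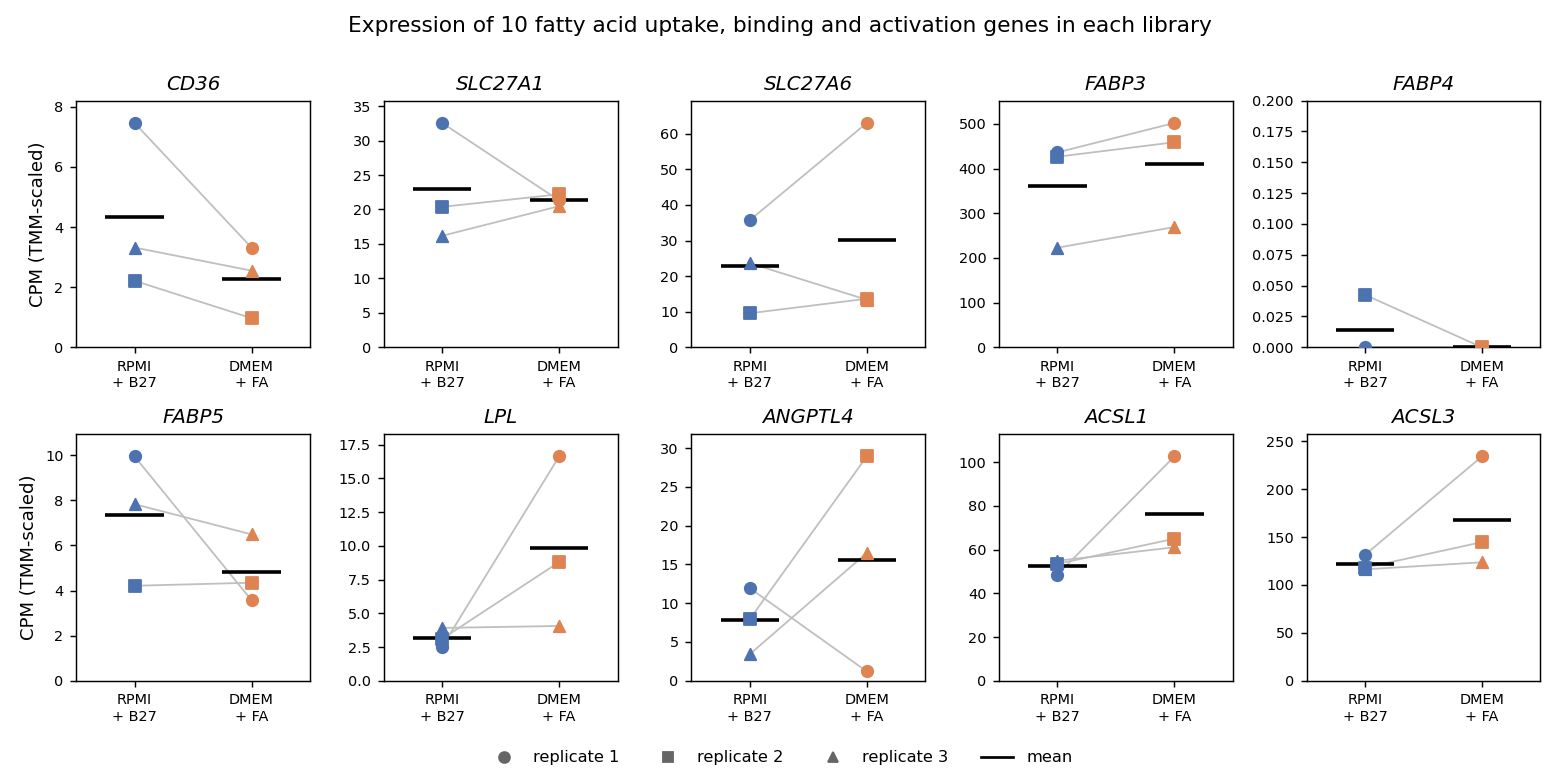
TMM-scaled CPM (linear axis from 0) of the 10 genes in each library, with the RPMI medium at left and the fatty acid medium at right in each panel. Grey lines join equal replicate numbers, marker shapes give the number and black bars the mean of 3. LPL and ACSL1 separate the media without overlap, SLC27A6 is highest in replicate 1 of both media, and ANGPTL4 drops to 1.21 CPM in fatty acid replicate 1.

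Among the binding proteins, FABP3 was abundant in both media and FABP4 was close to absent. FABP3 (chr1:31359588-31373076, minus strand) had 436.2, 426.4 and 222.9 CPM in the RPMI medium and 501.9, 458.8 and 269.1 CPM in the fatty acid medium. Replicate 3 was the lowest library in each medium, by a wide margin, and the groups overlapped. The log2 fold change was 0.18 ± 0.32 (95% interval -0.56 to 0.92, adjusted p 0.807), while the ratios within replicate numbers were 0.20, 0.11 and 0.27. The fit blocked on replicate number gave 0.19 ± 0.11 (adjusted p 0.346). Without RPMI replicate 3 the direction turned, to -0.071.

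FABP4, the adipocyte and macrophage form that is also found in endothelium, had 1 read in RPMI replicate 2 and 0 in the other 5 libraries. A count of 0 allows up to 3 reads, or 0.0889 to 0.129 CPM depending on the library. Adipocyte and macrophage markers were low as well. The 9 adipocyte markers summed to 1.91 to 4.26 CPM and the 9 macrophage markers to 0.736 to 2.15 CPM per library. RETN and ADGRE1 had no read in any library, and ADIPOQ did not exceed 0.0373 CPM.

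FABP5, the epidermal form (chromosome 8, like FABP4 and LPL), had 9.95, 4.21 and 7.83 CPM in the RPMI medium and 3.57, 4.35 and 6.49 CPM in the fatty acid medium. The groups overlapped, and the log2 fold change was -0.61 ± 0.37 (adjusted p 0.438). Its ratio within replicate numbers was -1.48 for number 1, 0.05 for number 2 and -0.27 for number 3. FABP5 has processed pseudogenes, and reads placed in more than one position were set aside, so its counts may be too low in all libraries. The 3 tested genes outside the 10 whose centred log2 CPM tracked FABP5 most closely over the 6 libraries were TIAM1, MIF-AS1 and BAIAP2L1. Their root mean square differences were 0.11, 0.11 and 0.14 on the log2 scale. MIF-AS1, an antisense RNA that did not exceed 0.829 CPM, has uncertain counts, since the strand setting of the counting is not given. None of these 3 or of the 3 named beside LPL below passed.

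FABP3 made up 97.8% ± 1.20 of the summed FABP3, FABP4 and FABP5 counts in the RPMI medium and 98.7% ± 0.892 in the fatty acid medium (exact two-sided permutation p = 0.4, n = 3 each, smallest possible p 0.1). The share was higher in the fatty acid medium in each replicate pair, by 1.52, 0.0492 and 1.04 percentage points. An exact sign-flip test over the 3 pairs gave p = 0.25, its smallest possible value. Of 13 other lipid-binding genes, 9 were tested and 0 passed the edgeR test, with 1 at an unadjusted p under 0.05 and 0 called by DESeq2, where all tested genes gave 1.36%, 17.7% and 6.93%. The smallest p values belonged to SCP2 (sterol carrier protein 2, 0.33 ± 0.12, adjusted p 0.215), ACBD6 (an acyl-CoA binding protein, -0.22 ± 0.10, adjusted p 0.338) and FABP6 (the ileal form, 0.80 ± 0.51, adjusted p 0.454). FABP12 and PMP2 had no read in any library.

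LPL had the largest fitted increase of the 9 genes and did not pass. Lipoprotein lipase hydrolyses circulating triglyceride, and in the heart the cardiomyocyte makes the enzyme that is then carried to the vessel wall. LPL had 2.52, 3.11 and 3.92 CPM in the RPMI medium and 16.6, 8.79 and 4.06 CPM in the fatty acid medium. The groups did not overlap, although the lowest fatty acid library was barely above the highest in the RPMI medium. Non-overlap in this direction was found for 2 of the 9 genes (LPL and ACSL1), against 12.8% of all tested genes, and in the other direction for 0 of 9, against 12.8%. LPL had a log2 fold change of 1.62 ± 0.49 (95% interval 0.47 to 2.77), an unadjusted p of 0.0122 and an adjusted p of 0.160, and 0.158 with the block.

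The DESeq2 Wald test called LPL with an adjusted p of 0.0166, the 1 call it made among the 9 genes, against 6.93% of the genes for which it gave an adjusted p. Over its 12 alternatives the adjusted p of LPL ran from 0.0166 to 0.336. The log2 ratio within replicate numbers 1, 2 and 3 was 2.72, 1.50 and 0.05, so the third pair differed little. Without fatty acid replicate 1 the log2 fold change was 1.01. The tested genes whose centred log2 CPM came closest to that of LPL were CEND1, SNAP91 and LOC107984316, with root mean square differences of 0.23, 0.29 and 0.30. CEND1 and SNAP91 are known from neurons.

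ANGPTL4 (chr19:8364155-8374370, plus strand), the secreted inhibitor of lipoprotein lipase and a PPAR target, had the widest spread of the 9 genes. It had 11.9, 7.96 and 3.43 CPM in the RPMI medium and 1.21, 28.9 and 16.5 CPM in the fatty acid medium. Replicate 1 of the fatty acid medium was the lowest of the 6 libraries and the other two in that medium were the highest. The log2 ratio within replicate numbers was -3.31, 1.86 and 2.26. The fitted log2 fold change of 1.00 ± 0.91 (95% interval -1.14 to 3.14, adjusted p 0.611) came from the means of the media, and the fit blocked on replicate number gave 0.71 ± 1.11. The unblocked value was 1.55 without fatty acid replicate 1, with an adjusted p of 0.252, and 0.20 without fatty acid replicate 2.

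PDK4 and CPT1A, other PPAR targets (PDK4 picked after its values were seen), were also lowest in replicate 1 among the fatty acid libraries. PDK4, a kinase that blocks pyruvate dehydrogenase, had 3.75, 15.6 and 13.1 CPM there, and CPT1A, the liver-type carnitine palmitoyltransferase, had 62.3, 126.8 and 107.1 CPM. Other genes of the list went both ways. In these libraries ACADVL (429.9, 541.8 and 537.3 CPM) and PLIN2 (44.8, 56.0 and 70.7) were also lowest in replicate 1. CPT1B (1.85, 1.40 and 1.42 CPM), PLIN5 (1.85, 1.30 and 1.22) and HILPDA (5.98, 5.35 and 5.81) were highest in it. Of 20 genes listed here as PPAR-related (receptors, RXR partners, coactivators and genes taken as targets), 18 were tested and 2 passed. CPT1A passed upward and TXNIP, an inhibitor of glucose uptake and thioredoxin, downward (1.75 ± 0.27 with adjusted p 0.0402, and -4.45 ± 0.30 with adjusted p 0.00478). These compare with 0.292% of all tested genes higher and 1.07% lower. The list, TXNIP included, was chosen with earlier results of these data known, so this comparison is descriptive only. CPT1A was called in 1 of the 6 fits without 1 library, that without fatty acid replicate 1, and its adjusted p was 0.0801 to 0.123 in the other 5, while TXNIP was called in all 12 alternatives. The next smallest p values were those of CPT1B, the muscle-type carnitine palmitoyltransferase (1.37 ± 0.37, adjusted p 0.124), ACADVL, a dehydrogenase of long-chain oxidation (0.48 ± 0.16, adjusted p 0.183), and HILPDA, a lipid droplet protein (-1.32 ± 0.46, adjusted p 0.199). The median log2 fold change of the 18 was 0.34.

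In fatty acid replicate 1, LPL and ANGPTL4 stood at opposite ends. That library held the highest value of the 6 for 5 of the 9 genes (FABP3, LPL, SLC27A6, ACSL1 and ACSL3), against 19.5% of all tested genes. What sets this library apart was not tested.

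Of 19 other genes of lipoprotein lipolysis and lipoprotein receptors, 12 were tested and 0 passed the edgeR test, with 3 at an unadjusted p under 0.05 and 2 (FURIN and APOE) called by DESeq2. Over all genes tested these shares were 1.36%, 17.7% and 6.93%. FURIN, a protease that cleaves lipoprotein lipase and angiopoietin-like proteins, had -0.43 ± 0.11 (adjusted p 0.104). APOE (apolipoprotein E) had 0.71 ± 0.18 (adjusted p 0.108) and SEL1L, which helps lipoprotein lipase leave the endoplasmic reticulum, 0.83 ± 0.27 (adjusted p 0.183). GPIHBP1, the endothelial anchor of lipoprotein lipase, had no read in any RPMI library and did not exceed 0.129 CPM in the fatty acid medium. The 8 endothelial markers summed to 38.2 to 241.1 CPM in the RPMI medium and 115.6 to 463.7 CPM in the fatty acid medium. KDR, a receptor also found on cardiac progenitors, made up most of each sum, with 27.5 to 238.9 and 114.5 to 463.2 CPM. KDR had a log2 fold change of 1.26 ± 0.76 (adjusted p 0.434, and 0.0245 with the block), with overlapping groups. It was higher in each replicate pair, with log2 ratios of 2.06, 1.48 and 0.96. Of the other 3 tested, TIE1 had -0.97 ± 0.53 (adjusted p 0.389). The remaining 2, EMCN and TEK, were lower without overlap, as were 12.8% of all tested genes. EMCN had 7.80, 1.32 and 1.23 CPM in the RPMI medium and 0.301, 0.234 and 0.0296 CPM in the fatty acid medium. Its log2 fold change was -4.23 ± 1.01 (adjusted p 0.0960, and 0.0237 with the block). TEK had -2.13 ± 0.51 (adjusted p 0.0960). CDH5 and ERG had at most 0.414 and 0.301 CPM in the RPMI medium and no read in the fatty acid medium, and PECAM1 did not exceed 0.213 CPM.

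ACSL1 and ACSL3 encode the long-chain acyl-CoA synthetases of this set. ACSL1 is known as the main synthetase feeding oxidation in the heart, and ACSL3 as the form found on the endoplasmic reticulum and lipid droplets. ACSL1 (chr4:184755595-184826594, minus strand) had 48.6, 53.4 and 54.8 CPM in the RPMI medium and 102.6, 64.9 and 61.0 CPM in the fatty acid medium, without overlap. Its log2 fold change was 0.54 ± 0.21 (95% interval 0.06 to 1.02), with an unadjusted p of 0.0323 and an adjusted p of 0.234.

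ACSL3 (chr2:222861036-222944639, plus strand) had 131.5, 118.0 and 116.3 CPM in the RPMI medium and 234.2, 144.8 and 123.7 CPM in the fatty acid medium. Here the groups overlapped, since the lowest fatty acid library fell under RPMI replicate 1. The log2 fold change was 0.46 ± 0.23 (95% interval -0.09 to 1.00, adjusted p 0.357). Both synthetases were higher in each replicate pair, with log2 ratios of 1.08, 0.28 and 0.15 for ACSL1 and 0.83, 0.30 and 0.09 for ACSL3. Without fatty acid replicate 1 the log2 fold changes were 0.27 and 0.14.

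The proportion of the 2 synthetases stayed within a narrow range. ACSL1 made up 30.1% ± 2.72 of their summed counts in the RPMI medium and 31.5% ± 1.37 in the fatty acid medium (exact two-sided permutation p = 0.6, n = 3 each, smallest possible p 0.1). Single libraries ran from 26.97% (95% Wilson interval 25.7% to 28.2%) to 33.0% (31.9% to 34.2%). These intervals do not overlap, so the spread between libraries was wider than counting error. Without RPMI replicate 1 the difference turned, to -0.121 percentage points.

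Of 18 other genes of acyl-CoA synthesis and hydrolysis, 12 were tested and 2 passed, upward, against 0.292% of all tested genes that passed in that direction. This list too was chosen with earlier results of these data known, so the comparison is descriptive only. ACSF2, a medium-chain acyl-CoA synthetase of mitochondria, had 76.4, 72.8 and 67.5 CPM in the RPMI medium and 113.5, 130.7 and 115.1 CPM in the fatty acid medium. The groups stood well apart, and the rise was 0.73 ± 0.11 on the log2 scale (adjusted p 0.0402). ACOT11, an acyl-CoA thioesterase, rose from 18.0, 28.4 and 34.0 CPM to 77.3, 62.4 and 62.3 CPM (1.33 ± 0.24, adjusted p 0.0495). ACOT7, a thioesterase abundant in brain, had -0.73 ± 0.22 with an adjusted p of 0.153, and 0.0357 with the block. ACSS2, the cytosolic acetyl-CoA synthetase, had 0.59 ± 0.25 (adjusted p 0.274) and ACOT1, a cytosolic thioesterase, 0.41 ± 0.17 (adjusted p 0.274). ACOT1 and ACOT2 are near-identical neighbours, so their counts are uncertain. Neither ACSF2 nor ACOT11 was called once any 1 of the 6 libraries was left out, and ACOT11 also missed with RLE scaling (0.0509) and with at least 10 counts in every library (0.0572). Over 12 alternatives the adjusted p ran from 9.36e-05 to 0.136 for ACSF2 and from 9.56e-05 to 0.138 for ACOT11. ACSL4 stood at 87.0 ± 14.6 and 91.5 ± 32.4 CPM, and ACSL5 and ACSL6 did not exceed 0.415 and 0.502 CPM.

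**Figure D3:**
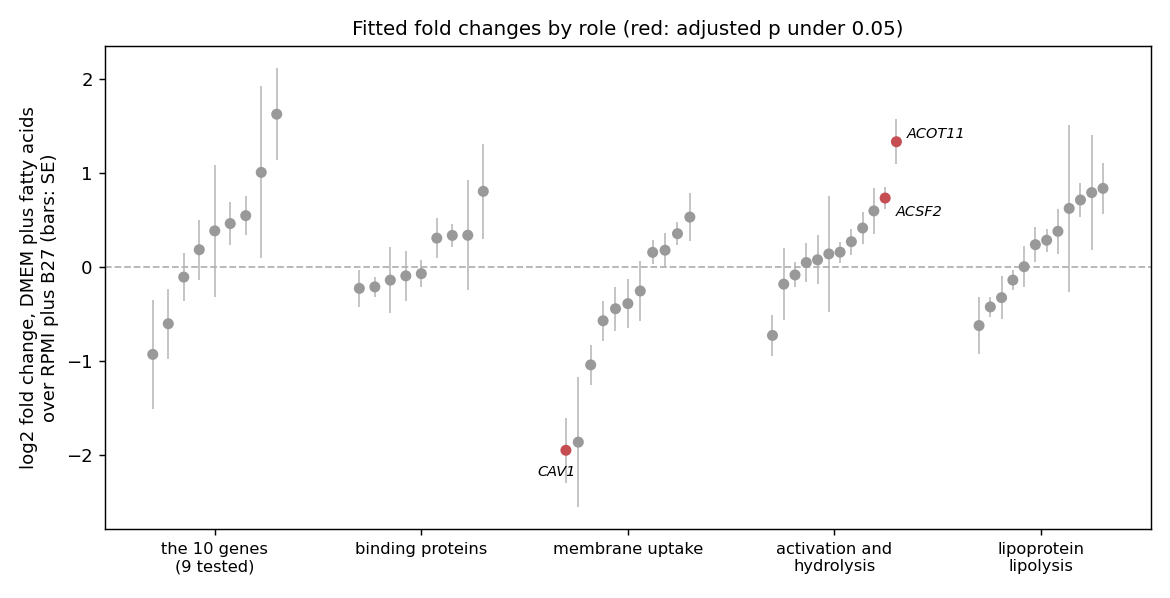
Fitted log2 fold change (fatty acid medium relative to RPMI medium) of the 9 tested genes and of 44 tested genes with related roles, sorted within each role. Points are genes, bars are SE, and red marks an adjusted p under 0.05. The 3 red points are CAV1 downward and ACSF2 and ACOT11 upward, and 0 of the 9 genes at left is red.

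Across the set, 0 of the 9 tested genes passed an adjusted p under 0.05, with the edgeR quasi-likelihood test, against 1.36% of all tested genes. In the blocked fit 0 of 9 passed again, against 4.78%. At an unadjusted p under 0.05 there were 2 of 9 (LPL and ACSL1), against 17.7% of all tested genes. With the block 4 of 9 were under it, CD36, LPL, ACSL1 and ACSL3, against 24.0%. The fitted log2 fold change was above 0 for 6 of 9, against 51.0%, with a median of 0.38. Values were higher in the fatty acid medium in all 3 replicate pairs for 4 genes (FABP3, LPL, ACSL1 and ACSL3), against 25.8% of all tested genes, and lower in all 3 for 1 (CD36), against 24.0%. Of the 63 related genes, 44 were tested and 3 passed, 2 higher and 1 lower. With the block 5 passed, 2 higher against 1.36% and 3 lower against 3.42% of all tested genes. Their median log2 fold change was 0.10.

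**Figure D4:**
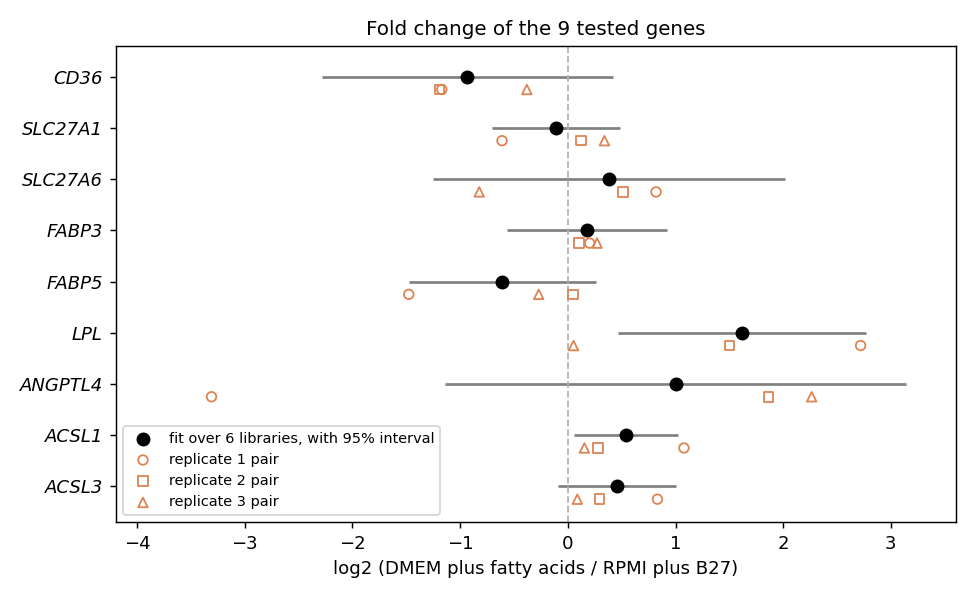
Log2 ratio of fatty acid to RPMI medium for the 9 tested genes. Black points are the fit over 6 libraries with its 95% interval, and open orange marks are the ratios within replicate numbers 1, 2 and 3. The intervals of LPL (0.47 to 2.77) and ACSL1 (0.06 to 1.02) lie above 0 before adjustment over 16107 genes, and the 3 marks of ANGPTL4 run from -3.31 to 2.26.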

How the data were processed

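RNA sequencing libraries from 6 cultures were analysed, 3 per medium, grouped and numbered by the sample titles. The library kit was a stranded one for mRNA, per the labels' protocols. STAR, HTSeq and the build hg38 are named in the submitters' processing notes, with versions, annotation and strand setting not given in the sources used here. Each library has 1 deposited file of unnormalized counts by gene symbol. The 5 summary rows (12.8% to 15.6% of each library) entered neither library sizes nor tests.

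The test was the edgeR quasi-likelihood test (edgeR 4.0.16, R 4.3.3). The filter filterByExpr (minimum count 10, minimum total 15) left 16107 genes, scaled by TMM, with no covariate, Benjamini-Hochberg over all of them and a threshold of 0.05. Standard errors were derived from the F statistic. Simulated counts with known changes were used to test the fit. Shares were compared with SciPy 1.17.1. Alternatives were RLE scaling, total counts, other filters, DESeq2 1.42.0, the replicate block and leaving out each library. Scaling by total counts moved the median of all fitted log2 fold changes from 0.01 to 0.12.

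Deviations from the medium's mean correlated at 0.313, 0.428 and 0.365 across genes for libraries of the same replicate number, and at -0.242 to -0.136 for others. The numbers were therefore treated as pairs in the within-number ratios, the sign-flip test and the blocked fit. The main fit and its p values ignored them. Nothing in the labels says what a number shares. No 2 libraries agreed within sampling noise (smallest chi-square per degree of freedom 29.4). The genes and lists were chosen with earlier results of these data known. Genes named beside the 10 were those called, up to 4 per direction, and the 3 next smallest p values of each related list, plus the 3 nearest patterns of LPL and FABP5, the members with the smallest p in each direction. Exceptions are named in the text, and include ACSL4, ACSL5, ACSL6 and GPIHBP1. Values of 1 related gene are not reported here.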

Additional observations from a re-analysis of the deposited data

How the results depend on the processing

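Under RLE scaling, total counts, either other filter and the replicate block, 0 of the 9 tested genes passed and none reversed, with SLC27A1 at 0.0 under total counts, and the replicate block changed none of their calls. It raised the number of genes called over the whole table from 219 to 770 of 16107 and that of related genes from 3 to 5 of 44. DESeq2 called 1 of the 9 (LPL, 1.62), 6 related genes and 1232 genes in all, which is 6.93% of the 17767 given an adjusted p. Without a filter 539 of 26979 genes passed, and with at least 10 counts in every library 119 of 14501, of which 1 was a related gene. Leaving out 1 library gave 3 to 131 genes in all, out of 16425 to 16579 tested, with 0 to 1 related genes and 0 of the 9.

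Leaving out 1 library gave log2 fold changes of -0.071 to 0.41 for FABP3, -0.31 to 0.22 for SLC27A1, -0.77 to 0.85 for SLC27A6, 1.01 to 2.00 for LPL, 0.20 to 1.55 for ANGPTL4, -1.30 to -0.29 for CD36, -0.89 to -0.32 for FABP5, 0.27 to 0.68 for ACSL1 and 0.14 to 0.64 for ACSL3. Only FABP3, SLC27A1 and SLC27A6 among these 9 changed sign, and the cause was not tested. Share differences ran from -0.121 to 2.42 percentage points for ACSL1 and from -9.10 to 9.23 for SLC27A6, both turning, and from 0.275 to 1.48 for FABP3. Among related genes, FABP2 ran from -0.01 (without RPMI replicate 2) to 1.15 and ACBD5 from -0.20 to 0.004 (without RPMI replicate 1), and ACBD5 also turned with total counts (0.032).

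Counts per library went as low as 28 reads for ANGPTL4 and 29 for CD36, which limits their precision beside the 3 libraries per medium.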
